A study of Homo sapiens with 2 samples.

Results

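Keratins are the intermediate filament proteins of epithelial cells. In the human genome, 55 of the 20033 protein-coding genes carry a keratin symbol, KRT followed by a number, and they were chosen by that symbol alone. Of these, 27 lie in a cluster on chromosome 12 and 28 in a cluster on chromosome 17. Their chromatin was read here from ATAC-seq, in which the Tn5 transposase cuts DNA that is not covered by nucleosomes. The cells were BEAS-2B (B2B), bronchial epithelial cells of human origin that were made immortal and do not come from a cancer. They were wild-type, no treatment is given in their labels, and they were grown in DMEM/F-12 medium with fetal bovine serum. A peak list was analysed for each of 2 replicates. Both replicates belong to 1 cell line under 1 condition, so there were no groups to test against each other. The labels do not say whether the replicates came from separate cultures, so the spread between them may be technical.

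Keratin filaments are built from pairs of a type I and a type II protein. Most type II genes lie in the chromosome 12 cluster and most type I genes in the chromosome 17 cluster, with KRT18, a type I gene, at the end of the type II cluster. Cells of simple epithelia, such as those lining glands and airways, make KRT8 and KRT18, often with KRT7 and KRT19. Basal cells of layered epithelia, the airway included, make KRT5 with KRT14, KRT15 or KRT17, and other members are made in differentiating layers, in injured epithelium or in the hair follicle.

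The lists used hold 28735 peaks for replicate 1 and 36162 for replicate 2. Fold enrichment, the measure of peak height, is the ratio of fragments over the summit to the background used in peak calling, with 1 added to each. Its median was 6.06 and 6.57. The median background was 4.77 fragments in replicate 1 and 3.41 in replicate 2. The weakest summits held 16 fragments in the list of replicate 1 and 13 in that of replicate 2. A promoter without a peak therefore fell short of what this depth could detect, which does not show it to be closed. Defining markers were read by their promoter peaks in both replicates, which 52.2% of all protein-coding genes had. They were found for 1 of 10 airway epithelial markers, of which KRT5, KRT14, KRT8, KRT18 and KRT19 are themselves keratins. That gene was KRT18, and CDH1, EPCAM, TP63, CLDN4 and ELF3, the markers that are no keratins, had none. They were found for 4 of 6 fibroblast markers (FN1, PDGFRB, VIM and COL1A1, interval 30.0 to 90.3%). Of 3 endothelial markers KDR had one in both, and of 3 leukocyte markers none had one in either.

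Keratin promoters were mostly without a peak. A peak was assigned to a promoter when it came within 1 kb of the transcription start site (TSS) of the canonical transcript. KRT80, KRT18 and KRT17 had a promoter peak in both replicates, 3 of 55 genes or 5.45% (95% Wilson interval 1.87 to 14.9), against 52.2% of all protein-coding genes. Where a promoter had several peaks, the values given are those of the peak with the highest −log10 q in each replicate, and these can be different peaks. A peak in either replicate was found for 4 genes, KRT8 being the added one, against 58.9% of all genes, and 51 keratin genes had none. On chromosome 12 as a whole 51.5% of promoters had a peak in both replicates, and on chromosome 17 the share was 44.01%.

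KRT80, a type II keratin of differentiating epithelium, lies at the low-coordinate end of the chromosome 12 cluster (TSS at 52192014, minus strand). Its promoter peak had a fold enrichment of 5.37 in replicate 1 and 5.86 in replicate 2 (mean 5.61 ± 0.34, SD, n = 2), over 30 and 27 fragments. The summits stood 261 and 340 bp upstream of the TSS, with a −log10 q of 11.96 and 12.07. Replicate 2 had a further, lower peak at 3.502 in exon 1, 157 bp downstream of the TSS. The heights at KRT80 were the closest between replicates among the 3 promoters.

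KRT18, the type I partner of KRT8, lies at the other end of that cluster (TSS at 52949118, plus strand). Its peak was not at the TSS itself but 752 bp downstream in replicate 1 and 746 bp downstream in replicate 2, in intron 1. Its height was 5.02 and 6.34 (mean 5.68 ± 0.93, SD, n = 2), over 28 and 27 fragments. The first intron of KRT18 is known to hold an enhancer. With a window of 500 bp the gene has no promoter peak, and the count of keratin promoters falls to 2. Several KRT8 transcripts of the minus strand are annotated to start within the same open region, 44.7 kb or more from the canonical KRT8 start.

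KRT17, a keratin of basal and injured epithelium, lies at the high-coordinate end of the chromosome 17 cluster (TSS at 41624575, minus strand). Replicate 1 gave it a fold enrichment of 3.81 and replicate 2 one of 6.57 (mean 5.19 ± 1.95, SD, n = 2), over 21 and 28 fragments. The summits stood 256 and 344 bp upstream of that canonical TSS. The annotated gene reaches to 41624842, past the summit of replicate 1 at 41624831 and short of that of replicate 2 at 41624919. KRT17 thus had the widest spread between replicates of the 3 promoters. The bases around its summit have 4 matches elsewhere. The 1 that was looked up lies in the pseudogene KRT17P1 on the other arm of the chromosome. It has 94.5% identity, below the 95% set for near copies, and no peak was called there.

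KRT8, the type II partner of KRT18, had a promoter peak in replicate 2 alone, at a fold enrichment of 5.89 over 25 fragments, with its summit 58 bp upstream of the TSS at 52905076 on the minus strand. The nearest peak of replicate 1 lay 20.1 kb upstream. The peaks of all 4 genes were low among promoter peaks. The median height of all promoter peaks was 7.97 in replicate 1 and 9.06 in replicate 2, and none of the 3 and none of the 4 keratin promoters reached it.

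Bases of the 3 promoter regions called in both replicates are shown, since the count above rests on them. They are from hg38 and run 5′ to 3′ on the strand of the gene. Capitals mark TGACTCA or its reverse complement, the site of AP-1, a dimer of Jun and Fos proteins. For KRT80 and KRT17 they surround the stronger summit. For KRT18 only the site and its surroundings are printed, which lie downstream of the summits, and the KRT17 window holds no such site.
KRT80 upstream open region, chr12:52192254-52192454, strand minus: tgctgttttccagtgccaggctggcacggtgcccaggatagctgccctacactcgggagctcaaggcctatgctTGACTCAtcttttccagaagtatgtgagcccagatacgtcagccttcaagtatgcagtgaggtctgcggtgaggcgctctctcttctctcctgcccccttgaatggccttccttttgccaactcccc
KRT18 intron 1 open region, chr12:52949924-52949952, strand plus: gtggctaaggcTGAGTCAtctaggagtaa
KRT17 upstream open region, chr17:41624843-41625019, strand minus: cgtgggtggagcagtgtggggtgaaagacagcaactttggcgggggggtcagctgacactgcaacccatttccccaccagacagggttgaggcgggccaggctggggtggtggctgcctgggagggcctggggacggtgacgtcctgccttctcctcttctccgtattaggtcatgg

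By expression group, the open promoters were spread thinly. Of 5 keratins of simple epithelia, KRT18 was called in both replicates and KRT8 in replicate 2, while KRT7, KRT19 and KRT20 had none. Of 4 basal keratins KRT17 had one, and KRT5, KRT14 and KRT15 had none. Of 14 differentiation keratins KRT80 alone had one, so that KRT1, KRT10, KRT4 and KRT13, which mark differentiating skin and mucosa, had none. None of 4 activation keratins (KRT6A, KRT6B, KRT6C and KRT16), which rise in injured epithelium, had one. Neither did any of 9 keratins of the root sheath and companion layer, any of 17 hair keratins, or KRT23 and KRT222. By type, 2 of 29 type I genes and 1 of 26 type II genes had a promoter peak in both replicates.

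The distance from a TSS to the edge of the nearest peak put the unmarked keratins in order. On chromosome 12 the median distance was 50.1 kb in replicate 1 and 50.2 kb in replicate 2, and on chromosome 17 it was 158 and 88.8 kb. The median over all protein-coding genes was 0.175 kb in replicate 1 and 0 kb in replicate 2. More than 100 kb from any peak were 7 of 27 genes of chromosome 12 in each replicate, and 18 and 13 of 28 genes of chromosome 17. Keratins at the ends of the chromosome 12 cluster and at the KRT17 end of the chromosome 17 cluster were nearest to peaks. In between, KRT75 and KRT6B lay within 10 kb of a lone region in both replicates and KRT32 was close to a peak in replicate 2.

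Among the simple epithelial keratins, KRT7 lay 10.9 kb from a peak in replicate 1 and 10.7 kb in replicate 2, both within its own gene. KRT19 lay 19.7 and 19.5 kb from a peak upstream of it. KRT20, the keratin of the gut lining, lay 363 and 215 kb away. The basal keratin KRT15 lay 29.1 and 29.0 kb from the same region as KRT19. KRT5 lay 77.3 kb from a peak in both, and KRT14, its partner, 37.8 kb in both, the nearest peak being that of the KRT17 promoter.

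The injury keratin KRT16 lay 11.9 kb from that KRT17 peak in both replicates, and KRT6A 50.1 and 50.2 kb from a peak. The pair of the outer skin, KRT1 and KRT10, lay far off, KRT1 at 194 and 191 kb and KRT10 at 301 and 270 kb. KRT4 and KRT13, the pair of mucosal epithelium, lay at 60.1 and 57.2 kb and at 42.4 and 40.6 kb. KRT23 was at 416 and 162 kb. The hair keratins KRT81 and KRT86 were closer, at 10.9 and 10.3 kb and at 5.76 and 5.73 kb. The gene farthest from a peak on chromosome 12 was KRT2, at 209 kb in both replicates. On chromosome 17 it was KRT40 at 463 kb in replicate 1 and KRT10 in replicate 2.

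**Figure D1:**
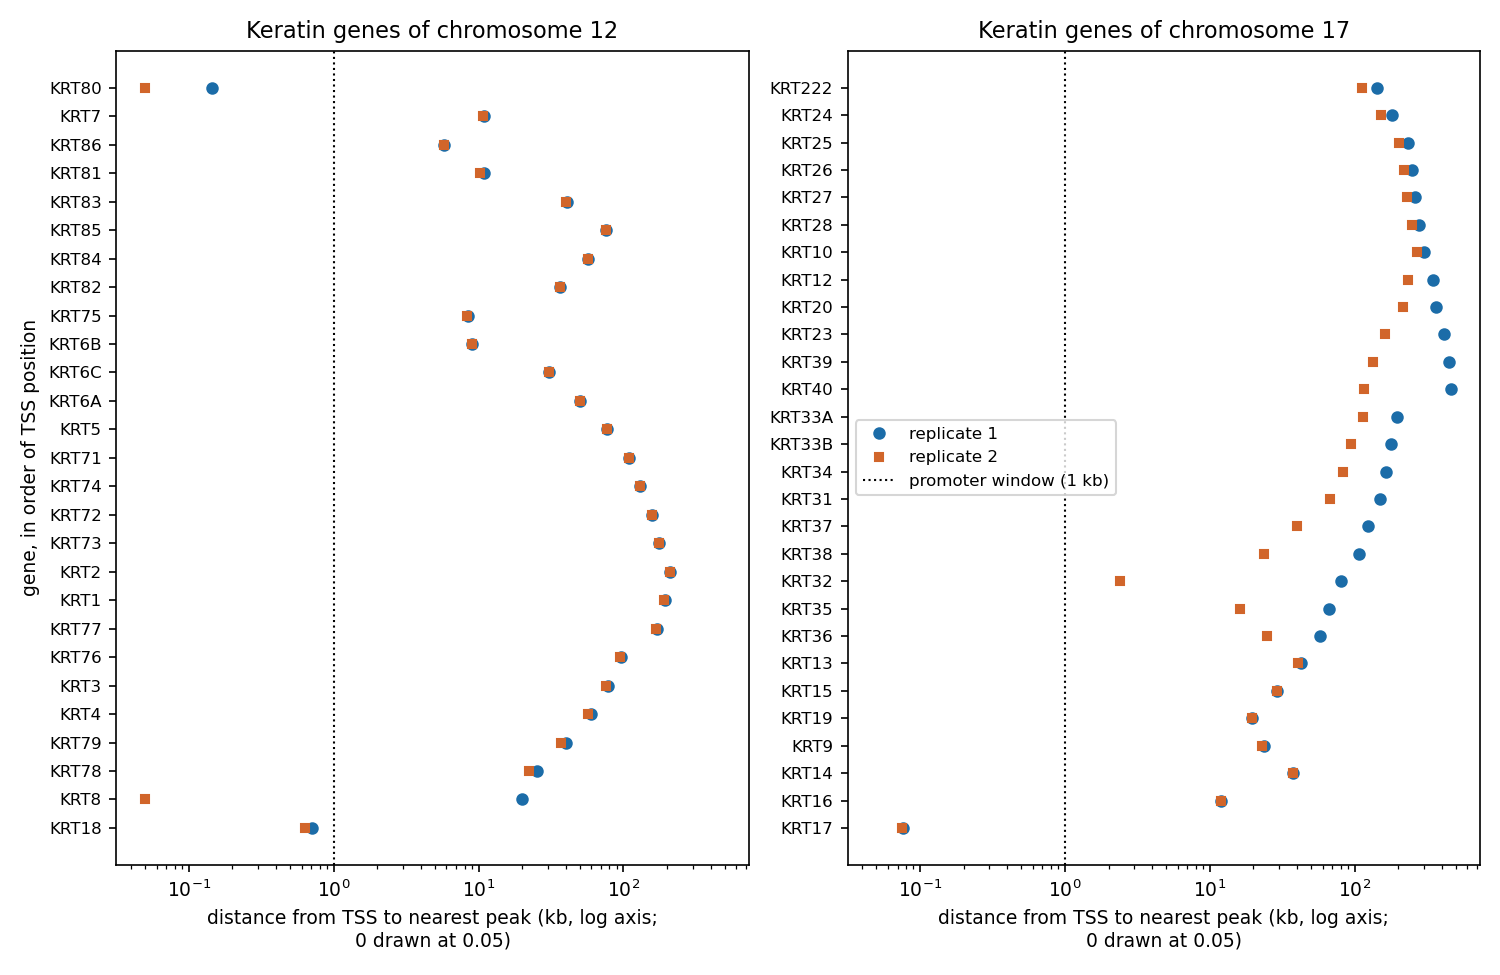
Distance in kb (log axis) from each keratin TSS to the edge of the nearest peak, for the 27 genes of chromosome 12 and the 28 of chromosome 17 in order of position, with a circle for replicate 1, a square for replicate 2 and a dotted line at the 1 kb promoter window. Points left of the line are KRT80, KRT18 and KRT17 in both replicates and KRT8 in replicate 2, and the genes from KRT71 to KRT77 on chromosome 12 and from KRT222 to KRT33A on chromosome 17 lie more than 100 kb from a peak in both replicates.

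Promoters rich in CpG dinucleotides are known to be open in many cell types. Within 500 bp to either side of the TSS keratin promoters held a median of 19 CpG, against 66 over all protein-coding genes. The lowest count was 3, at KRT86, and the highest 82, at KRT7. In the 10 groups of genes by CpG count, 49 keratins fell in the lowest 3 groups. In the lowest group 0 of 5 had a promoter peak in both replicates, against 2.10% of all genes in it, and in the next 0 of 29, against 6.66%. In the group with 22 to 41 CpG, 2 of 15 had one, KRT80 and KRT17, against 21.7%.

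The keratins with CpG-rich promoters differed among themselves. KRT18, with 72 CpG, was called in both lists, as were 73.6% of all genes in its group. KRT19 with 79 and KRT7 with 82 had none, in a group where 72.3% of genes had one. KRT72 with 58 CpG had none, in a group at 68.0%, and neither did KRT81 with 47 or KRT85 with 42, in a group at 56.5%. These are 6 genes, too few to set a share of keratins beside that of a group.

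**Figure D2:**
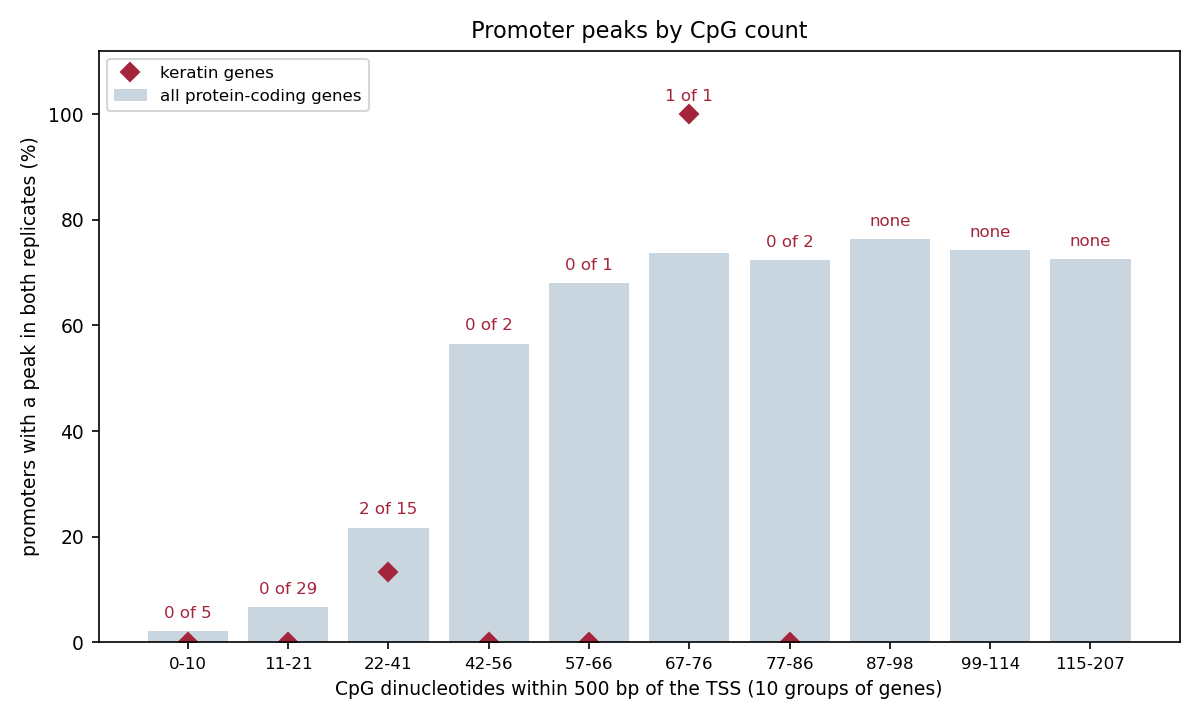
Bars give the percentage of all protein-coding promoters with a peak in both replicates in each of 10 groups by CpG count, diamonds give the percentage of keratin promoters, and the red text gives keratin promoters with a peak of those in the group. Keratins are mostly in the low groups, with 0 of 29 at 11 to 21 CpG, 2 of 15 at 22 to 41, and 0 of 2 at 77 to 86 CpG.

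A second feature of these promoters was the TATA box, the letters TATAAA read on the gene's strand between 40 and 20 bases before the TSS. It was present in 20 of 55 keratin promoters (36.4%) against 3.86% of all protein-coding promoters. The clusters differed, with 17 of 28 on chromosome 17 (60.7%) and 3 of 27 on chromosome 12 (11.1%). Over all genes 24.1% of promoters with the letters had a peak in both replicates, against 53.3% of those without them. Among keratins it was 1 of 20, KRT17, and 2 of 35, KRT80 and KRT18. The bases before the canonical starts of KRT10, a skin keratin, and KRT31, a hair keratin, show the letters at promoters without a peak. They run 5′ to 3′ on the gene's strand from hg38, with TATAAA in capitals.
KRT10, chr17:40822615-40822674, strand minus: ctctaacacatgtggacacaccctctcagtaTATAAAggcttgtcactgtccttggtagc
KRT31, chr17:41397609-41397668, strand minus: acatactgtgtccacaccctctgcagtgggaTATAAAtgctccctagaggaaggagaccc

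Most open regions of the chromosome 12 cluster sat towards its ends, and the shared regions of the chromosome 17 cluster sat towards its KRT17 end. The chromosome 12 cluster spans 52168996 to 52952906 (0.784 Mb), from KRT80 to KRT18. It held 11 peaks of replicate 1 and 18 of replicate 2, and 11 regions with a peak of each, where peaks that overlap by at least 1 bp were merged into a region. That is 14.03 shared regions per Mb, against 8.50 over the whole chromosome and 21.0 in the 500 kb to either side. For shared regions with the summit more than 1 kb from any protein-coding TSS the order differed. They numbered 11.5 per Mb in the cluster, 4.50 over the chromosome and 9 in the flanks. The chromosome 17 cluster spans 40654665 to 41624842 (0.970 Mb), from KRT222 to KRT17, and held 2 peaks of replicate 1 and 5 of replicate 2. Its 2 shared regions are 2.06 per Mb, against 13.4 over that chromosome and 14 per Mb in its flanks. Away from promoters in the same sense the values were 1.03, 7.36 and 5 per Mb. With the cluster edges as drawn, both comparisons put this cluster lowest. With 100 kb added at either end the chromosome 17 cluster held 4 shared regions, so the count depends on where the edge is drawn.

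Parts of each cluster held many gene starts and no peak. On chromosome 12 no peak of either replicate lay between 52443112 and 52871313, 428 kb that hold the starts of 16 genes, all of them keratins, from KRT6B to KRT78. On chromosome 17, 548 kb from 40552267, which is 102.4 kb below the start of the cluster, to 41099795 held 28 starts, 12 of keratins and 13 of keratin-associated proteins (KRTAP), which crosslink the filaments of hair. The next 365 kb, from 41099947 to 41464826, held 27 starts, 6 of keratins and 21 of KRTAP genes. By number of starts the 428 kb of chromosome 12 rank 18 of the 37685 stretches between peaks, and those of chromosome 17 rank 3 (tied) and 5, the top one holding olfactory receptor genes on chromosome 11. By length they are not extreme, at ranks 1038, 755 and 1272. The peak that parts the 2 stretches was called in replicate 2 alone at a fold enrichment of 5.21 and has a copy at 97.0% identity nearby.

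Counted by genes, 65 consecutive protein-coding genes of chromosome 17, from TNS4 to KRT16, had no promoter peak in either replicate, and 27 of these were keratins and 34 KRTAP genes. Ranked by genes, this was number 2 of 3653 such runs. On chromosome 12 the run from KRT7 to KRT78 held 24 genes, all keratins, and ranked 12. None of the 94 KRTAP genes of the genome had a promoter peak in either replicate, against 58.9% of all protein-coding genes. The 95% Wilson interval reaches 3.93% and treats the genes as independent. The 34 KRTAP genes of the chromosome 17 cluster held 3 to 36 CpG within 500 bp of the TSS. In the groups with such counts 2.10 to 21.7% of all genes had a promoter peak in both replicates. Near copies of KRTAP promoters were not sought.

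**Figure D3:**
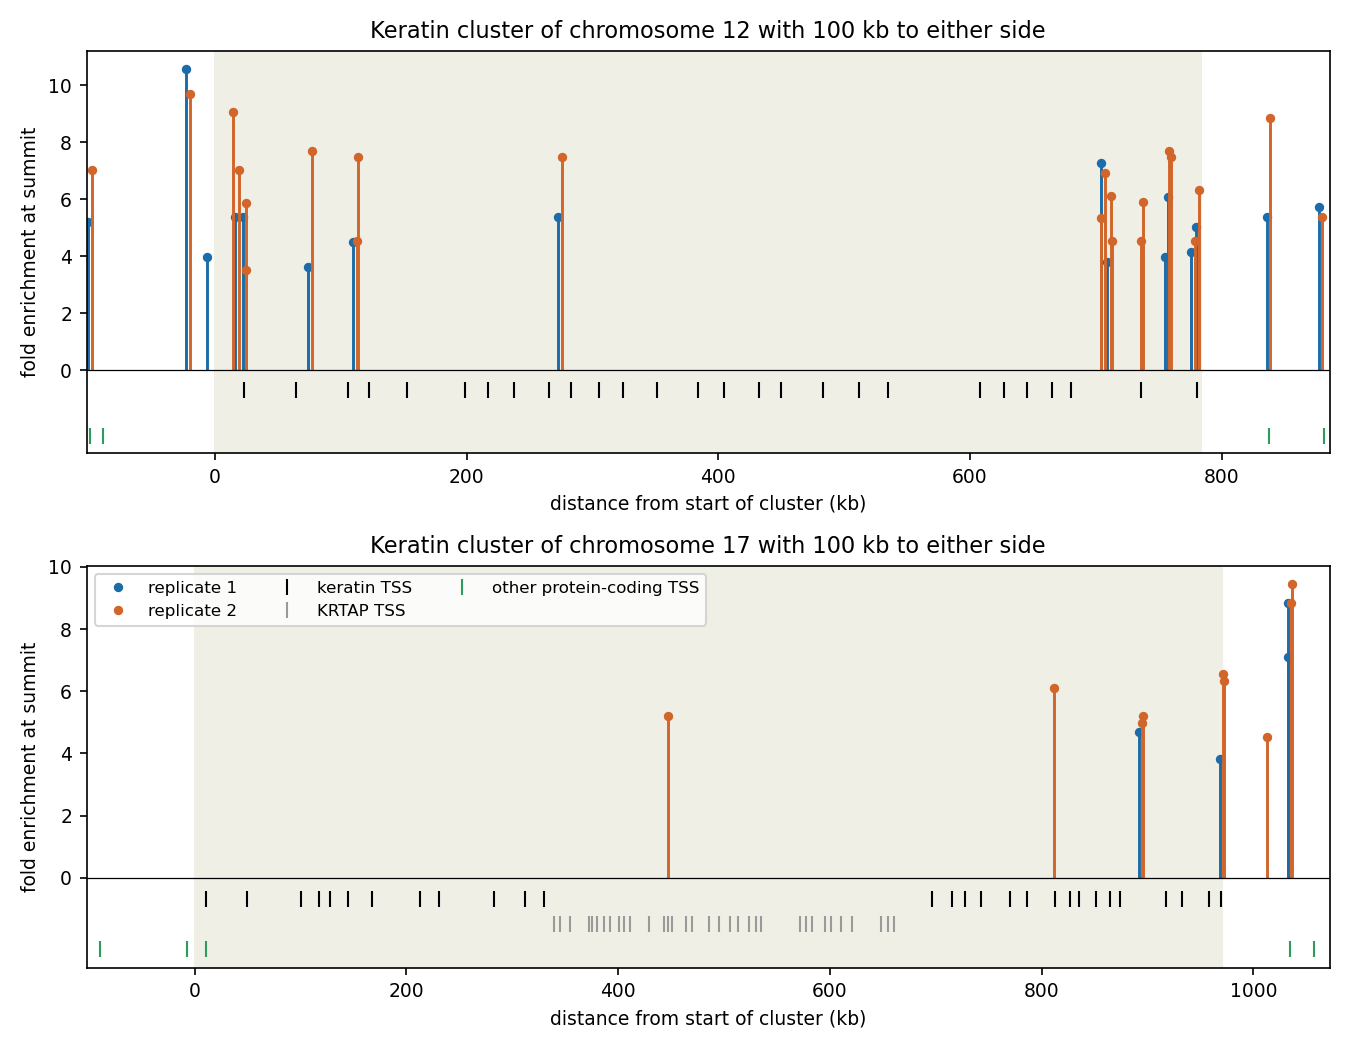
Fold enrichment at the summit of each peak in replicate 1 (blue) and replicate 2 (orange) against the distance in kb from the start of each cluster, shaded, with 100 kb to either side. The replicates are drawn 3 kb apart so that both can be seen, and ticks under the axis mark the starts of keratin, KRTAP and other protein-coding genes, showing the 428 kb without a peak on chromosome 12 and the near-empty chromosome 17 cluster.

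Within 500 kb of the clusters, 18 of 58 other genes (31.0%) had a promoter peak in both replicates, below the 52.2% of all protein-coding genes. The counts were 3 of 9 genes below and 9 of 20 above the chromosome 12 cluster, where the whole chromosome stands at 51.5%. Around the chromosome 17 cluster they were 2 of 10 and 4 of 19, where the chromosome stands at 44.01%. These are also the counts of replicate 1. A peak in either replicate, always one of replicate 2, was found for 3 of 9 and 12 of 20 around the chromosome 12 cluster. Around the chromosome 17 cluster it was found for 4 of 10 and 11 of 19. Over the whole chromosomes this held for 611 of 1038 and 614 of 1186 genes, and over all protein-coding genes for 58.9%. Among those with a peak in both, EIF4B, a translation initiation factor 53.6 kb above the chromosome 12 cluster, had 5.37 in replicate 1 and 8.84 in replicate 2 as fold enrichment. NR4A1, an orphan nuclear receptor 118 kb below it, had 5.89 and 8.38. EIF1, another initiation factor 64.0 kb above the chromosome 17 cluster, had a pair of promoter regions, 1 at 8.84 in both replicates and 1 at 7.103 and 9.46. JUP, which encodes plakoglobin of the junctions where keratin filaments are anchored, lies 162 kb above it and had 9.70 and 16.1. SMARCE1, a chromatin remodeling subunit only 6.85 kb below the chromosome 17 cluster, had none.

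The heights of the 13 shared regions differed between the replicates. In replicate 1 their fold enrichment ran from 3.64 to 7.28 with a median of 4.68, and 1 of them was above the median of all peaks in that list. In replicate 2 it ran from 4.53 to 7.70 with a median of 6.57, the same as over all peaks of the list, and 6 were above it. All 13 peaks of replicate 1 were shared, and the other 10 of replicate 2 were not. Replicate 2 was higher in 12 of the 13, at a median ratio of 1.26, while the median ratio over all shared regions was 1.17. Fold enrichment also depends on the background, whose median was 4.77 fragments in replicate 1 and 3.41 in replicate 2. The summit fragments themselves went both ways between replicates 1 and 2, with 25 and 19 in intron 2 of KRT86 and 20 and 33 in intron 6 of KRT7. The summits of the replicates stood a median of 53 bp apart and at most 140 bp.

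The strongest shared region by mean height was chr12:52874022-52874560, between KRT78 and KRT8, at 7.28 in replicate 1 and 6.91 in replicate 2. It was the single shared region in which replicate 1 was higher. It is rich in G and C (78.1% within 100 bp of the summit, with 22 CpG) and lies 25.4 kb upstream of KRT78, a keratin of layered epithelium. The next, chr12:52927322-52927606, had 6.06 and 7.48 and lies 21.7 kb upstream of KRT18. Its neighbour chr12:52925134-52925463 had 3.98 and 7.70 and lies 20.2 kb upstream of the canonical KRT8 start. A longer KRT8 transcript begins between these 2 regions, at 52926469. That start is within 1 kb of chr12:52927322-52927606 and 1006 bp from its neighbour. Both regions are in introns of longer KRT8 transcripts.

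The region chr12:52442673-52443111 stood alone in the middle of the chromosome 12 cluster, at 5.37 and 7.48. It lies between KRT75, a keratin of the hair companion layer, and KRT6B, 8.62 kb upstream of KRT75. Within KRT80, chr12:52186151-52186350 in intron 1 had 5.37 and 7.02. Within KRT7, chr12:52243990-52244374 in intron 6 had 3.64 and 7.70, the lowest height of replicate 1 among these regions. A shorter KRT7 transcript is annotated to start beside it, 11.1 kb from the canonical start. Between KRT78 and KRT8, chr12:52879478-52879760 had 3.81 and 6.12. With the regions of the KRT18, KRT80 and KRT17 promoters these are the 10 strongest shared regions.

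The remaining shared regions were chr17:41547855-41548321 between KRT19 and KRT9 at 4.68 and 4.98, chr12:52280372-52280661 in intron 2 of KRT86 at 4.50 and 4.53, and chr12:52945779-52946179 upstream of KRT18 at 4.16 and 4.53. These heights were close between replicates. The strongest peak of the clusters in either list, at 9.06 in intron 2 of KRT80, chr12:52181694-52182087, was called in replicate 2 alone. In replicate 2 alone there was also a peak at 6.12 in intron 3 of KRT32, a hair keratin. KRT32 lay 2.38 kb from a peak in that replicate and 80.6 kb in the other. The other peaks of replicate 2 alone were chr12:52280854-52281230 in intron 2 of KRT86 at 7.48, chr12:52871314-52871615 at 5.33 and chr12:52879931-52880153 at 4.53 between KRT78 and KRT8, chr12:52903447-52903630 in intron 1 of KRT8 at 4.53, and chr17:41548972-41549124 between KRT19 and KRT9 at 5.21. With the peaks at KRT80 exon 1, the KRT8 promoter and the KRTAP genes, these are all 10.

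**Figure D4:**
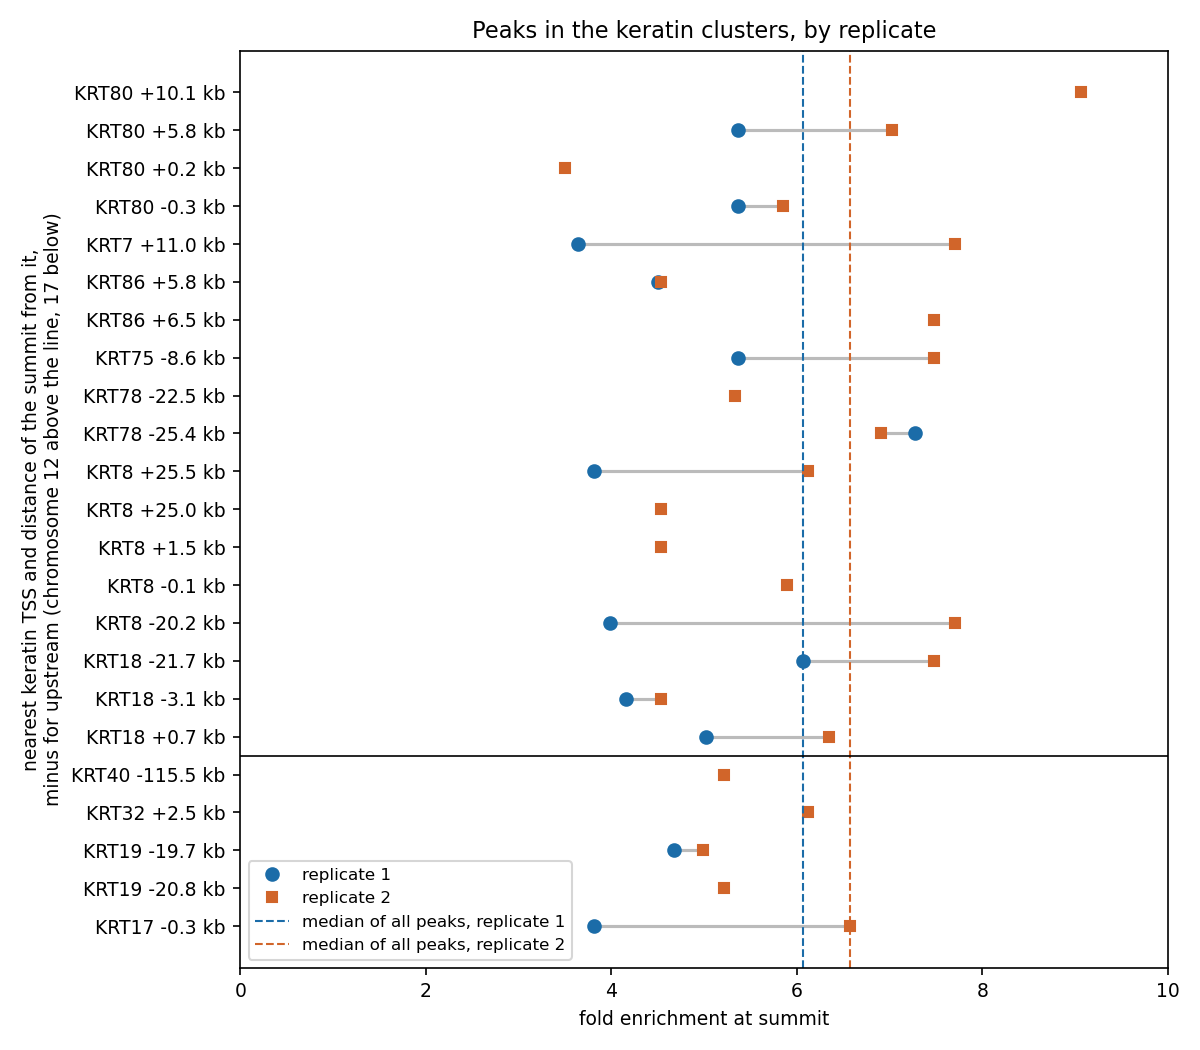
Fold enrichment of the 23 regions with a peak in the keratin clusters, one row per region in order of position and named by the nearest keratin TSS, with a blue circle for replicate 1, an orange square for replicate 2, a grey line between them where both called a peak, and dashed lines at the median of all peaks in each list. Of 13 shared regions, 12 are higher in replicate 2, and 1 circle is above the median of replicate 1.

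The AP-1 letters TGACTCA, searched on both strands within 100 bp of the stronger summit, were found in 7 of the 13 shared regions (53.8%, 95% Wilson interval 29.1 to 76.8). They were found in 20.5% of the 25366 shared regions of the genome, in 32.6% of those away from promoters and in 2.81% of those at promoters. Of the 10 cluster regions away from promoters 5 held them, and the interval of 23.7 to 76.3% includes the genome's 32.6%. The count depends on which summit is used, as 5 of the 13 held the letters around the summit of replicate 1 and 7 around that of replicate 2. Anywhere in the region it was 8. Intervals cover counting error only.

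The 7 regions are those of the KRT80 promoter, KRT80 intron 1, KRT7 intron 6, the intron 1 of KRT18, the region between KRT78 and KRT8 at the top of the ranking, the region 20.2 kb upstream of KRT8, and the region upstream of KRT19. At the KRT80 promoter and upstream of KRT8 the letters are near the summit of replicate 2 and not of replicate 1. The 5 regions away from promoters are shown around their AP-1 letters in capitals, from hg38, 5′ to 3′ on the strand of the nearest keratin gene.
KRT80 intron 1, chr12:52186242-52186322, strand minus: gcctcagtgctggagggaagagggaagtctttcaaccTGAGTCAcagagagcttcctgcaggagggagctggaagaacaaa
KRT7 intron 6, chr12:52244217-52244297, strand plus: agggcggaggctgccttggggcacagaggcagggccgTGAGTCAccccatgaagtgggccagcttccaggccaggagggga
Between KRT78 and KRT8, chr12:52874331-52874411, strand minus: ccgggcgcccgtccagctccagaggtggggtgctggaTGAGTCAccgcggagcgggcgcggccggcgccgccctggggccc
Upstream of KRT8, chr12:52925310-52925390, strand minus: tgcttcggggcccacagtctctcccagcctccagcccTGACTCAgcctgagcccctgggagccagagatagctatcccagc
Upstream of KRT19, chr17:41548054-41548134, strand minus: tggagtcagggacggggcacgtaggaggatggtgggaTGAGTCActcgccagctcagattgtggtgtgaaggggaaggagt

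Other letters were less frequent in the 13 regions. The AP-2 letters GCCNNNGGC were in 3 (20.05% of all shared regions), and the TEAD letters ACATTCC in 2 (6.46%). The GC box GGGCGG was in 2 (39.5%), CCAAT in 2 (26.3%) and the CTCF letters CNAGGNGGC in 1, at the KRT80 promoter (9.09%). The RUNX letters TGTGGTT (5.30%), the GRHL letters AACCGGTT (0.102%) and the ETS letters CCGGAAG (7.62%) were in none. Of the 10 cluster regions away from promoters 3 held the AP-2 letters, 2 the TEAD letters, 2 the GC box and 1 CCAAT. Over all shared regions away from promoters the shares were 14.3%, 10.1%, 18.8% and 22.8%. For the CTCF, RUNX, GRHL and ETS letters, in none of the 10, they were 6.84%, 7.91%, 0.0996% and 3.02%. All letters were read on both strands, and matches of different letters may overlap.

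The keratins were set beside the other intermediate filament genes, a list of 17. Of these, 6 had a promoter peak in both replicates (35.3%, interval 17.3 to 58.7), and LMNB2, a nuclear lamin, had one in replicate 2 alone. The lamins LMNA and LMNB1 had fold enrichments of 6.41 and 8.81 and of 11.3 and 13.1 in replicates 1 and 2. VIM, the vimentin of mesenchymal cells and of many cultured lines, had 7.43 and 6.92. SYNM, which encodes synemin, had 11.0 and 9.21, BFSP1, known from the lens, had 6.06 and 9.74, and IFFO2 had 9.01 and 10.4. The genes DES, GFAP, NES, PRPH, INA, NEFL, NEFM, NEFH, BFSP2 and IFFO1, most of them known from muscle, nerve, glia or lens, had no promoter peak. The interval of this list includes the 52.2% of all protein-coding genes. Its promoters are richer in CpG than those of keratins, and the 2 were not matched for this. All but VIM, GFAP and BFSP2 held 57 CpG or more, in groups where 68.0 to 76.3% of all genes had a promoter peak in both replicates.

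Genes of epithelial regulators were read in the same way, as several are known to act on keratin genes. Of 16, 5 had a promoter peak in both replicates (31.3%, interval 14.2 to 55.6, which includes the 52.2% of all protein-coding genes), among them KLF5 at 12.7 and 13.8, KLF4 at 11.8 and 10.4, GRHL1 at 8.84 and 12.5 and TFAP2A at 3.89 and 3.71. TFAP2C had one in replicate 2 alone, at 6.12. The regulators TP63, GRHL2, GRHL3, OVOL1, OVOL2, ELF3, EHF, ESRP1, ESRP2 and ZNF750 had none. ELF3 and ESRP2 had peaks 2.22 and 1.24 kb upstream in replicate 1, and with a window of 3 kb the count of this list rises to 8.

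Near copies limit what can be read at some keratins. Of the 201 bases around each TSS, those of KRT14, KRT16, KRT37 and KRT38 match another place in the genome at 95% identity or more over at least 150 bases. KRT6A, KRT6B and KRT6C match one another at 92.0 to 94.1%. Matches over fewer bases were most numerous at the starts of KRT18, with 57 elsewhere, and KRT8, with 35. The match looked up had 92% identity over 100 bases for KRT18 and 98.8% over 82 bases for KRT8. The open region in intron 1 of KRT18 had 0 matches elsewhere. Peaks were looked up at a single copy for each of these genes, and none was called there. KRT14 and KRT16 each had 7 matches elsewhere. How reads that match several places were treated is not given in the sources used here, and its part in the missing peaks was not tested.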

How the data were processed

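ATAC-seq peak lists of 2 replicates of B2B cells were analysed, 1 list per replicate. Per the submitters' processing notes and the study's methods, the authors mapped reads to hg38 with Bowtie2 2.4.4, handled alignments with SAMtools 1.13, removed duplicates and called peaks with MACS2 2.2.7.1. The deposited fold enrichment is a linear ratio, with 1 added to the fragments and to the background. Significance is deposited as −log10 p and −log10 q, and the deposited score was not used. The q limit, the Tn5 shift and the treatment of multiply mapped reads are not given in the sources used here.

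Only peaks on the numbered chromosomes 1 to 22 and on X and Y entered the counts. Summit fragments were obtained by solving the MACS2 formulas for fold enrichment and −log10 p, with a tolerance of 0.01, and came out whole for 99.9% of peaks. The method, the overlaps and the motif search were tested on simulated data. Promoters, exons and introns followed GENCODE 44 and sequence followed hg38. Peaks were compared by an overlap of at least 1 bp, and a cluster ran from the start of its first to the end of its last keratin gene. Near copies were sought with BLAST 2.17.0 (blastn, E-value limit 1e-10). Python 3.11.15, numpy 2.4.6, pandas 2.3.3, scipy 1.17.1, pysam 0.24.0 and matplotlib 3.10.9 were used. Intervals are 95% Wilson intervals.

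Named are every keratin with a promoter peak, landmark keratins with their nearest peaks, and those with the highest and lowest CpG count. Also named are every open region of the clusters (the 10 highest in full) and the genes of the intermediate filament and epithelial regulator lists. Of the 18 neighbouring genes with a promoter peak in both replicates only some are named, and these are neither the highest nor the nearest as a set. KRT2, KRT31, KRT32, KRT37, KRT38, KRT40, KRT72, KRT85 and SMARCE1 were named after their values were seen. 1 gene of the second list and some promoter sequences are not reported here. The members and the lists were chosen with earlier results of these data known. The alternatives were other promoter windows, the TSS of any transcript, a −log10 q of at least 5, equal peak numbers, an overlap of 50%, other cluster edges, other motif windows and each replicate alone.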

Additional observations from a re-analysis of the deposited data

How the results depend on the processing

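Of 73 alternative values over 11 results, 65 stayed within 1.5 times a count, within the SD between replicates of a density, or within the 95% interval of a share. The other 8 moved beyond these limits. With the TSS of any annotated transcript, 5 keratin promoters had a peak in both replicates in place of 3, the added genes being KRT7 and KRT8, and 8 epithelial regulators did in place of 5. The same 8 was reached with a window of 3 kb. With 100 kb added at either end, the chromosome 17 cluster held 4 shared regions in place of 2. With 1 replicate left out, the peaks of the other alone gave 11 to 18 regions in the chromosome 12 cluster (14.03 to 22.96 per Mb) and 2 to 5 in the chromosome 17 cluster (2.06 to 5.15 per Mb), the higher values being those without replicate 1. Keratin promoters with a peak then numbered 3 to 4, KRT8 being the added gene. The share of cluster regions with AP-1 letters was 34.8 to 38.5% with either replicate alone, from 46.2 to 61.5% with other motif windows, and 63.6% with equal peak numbers. Peaks of both replicates were present in 56.5% of the 23 cluster regions, and in 47.8% when the overlap had to span 50% of each peak. This last alternative, and those for this share with stronger or equal numbers of peaks, were chosen after seeing the data. No paired analysis was possible because both replicates belong to 1 group. Depth limits these counts, since the weakest listed summits held 16 and 13 fragments.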
